A study of Caenorhabditis elegans with 2 samples.

Results

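Exonic regions away from promoters are candidate MADF-2 binding regions whose summit, the base of highest signal in the region, lay inside an exon of a protein-coding gene but far from the start of any coding gene. They were taken from the list of regions called on both replicates pooled, in the ce11 build of the *Caenorhabditis elegans* genome. A region was a member if its summit lay in an exon, no closer than 1000 bp upstream or 200 bp downstream of any coding 5′ end, more than 300 bp from any tRNA, snoRNA, snRNA or miRNA gene, and outside long noncoding and antisense RNA genes. There were 8138 members among 30000 pooled regions (27.1%, 95% Wilson interval 26.6 to 27.6). By the position of the summit, 613 members were in 3′ UTRs, 7270 in coding exons, 219 in 5′ UTRs and 36 in other exon sequence of coding genes. No signal value entered this choice.

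The study mapped the binding of MADF-2 with ChIP-seq, the sequencing of DNA recovered by chromatin immunoprecipitation, in whole late embryos of both sexes. It had 1 group of 2 biological replicates, so it holds no untagged, mutant or treated animals to compare. All animals were of strain OP587, which carries the *unc-119* allele tm4063 on chromosome III and the integrated transgene wgIs587, from which MADF-2 is made with a tag of GFP and FLAG at its C-terminus. They were collected 3 h after synchronization by bleaching of eggs, chromatin was sheared by sonication, and an antibody against GFP was used for the precipitation. The strain is 1 transgenic line, and the level of the tagged protein relative to the native one was not measured in these lists. Replicate 1 had 30000 candidate regions and replicate 2 had 27350, and the number of reads behind them is unknown. The authors' reproducibility filter (IDR, the irreproducible discovery rate) kept the pooled regions of highest signal value, called optimal regions here. The lists are made of peaks and background together, so a region outside the optimal set is a candidate only.

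MADF domains are DNA-binding folds related to the Myb repeat, found in transcription factors and chromatin-associated proteins of insects and worms. Such factors are usually mapped at promoters and enhancers. In the compact worm genome, however, exons take up a large share of the sequence, genes lie close together, and the end of a gene is often near the start of the next. Many worm transcripts have their first bases replaced by a spliced leader, so the annotated 5′ end of a gene need not be where transcription begins. A 3′ UTR carries the signals for cleavage and polyadenylation, among them the word AATAAA, and is richer in A and T than coding sequence.

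The windows of 29 bp centred on the summits of strong members are shown to give the bases at the summits themselves. They are given on the plus strand of ce11, with the summit at base 15. Capitals mark 5 words on either strand: the polyadenylation signal AATAAA, the T run TTTTTT, the repeat GAGAGA, the E-box CACGTG and the CpG-rich word CGCG. In 5′ UTRs, 4 windows of optimal members are shown.
F22D3.4 at chrII:6926207-6926235: acgtcattCGCGttgcgtacacactaaac
Y43F8B.2 at chrV:19522756-19522784: taatgacgtcataattagGAGAGAGAgtt
C34C12.2 at chrIII:3456414-3456442: ctttttgCGCGatgcaagCGCGctccacc
*alg-1* at chrX:13950716-13950744: cCGCGCGttTCTCTCccttTCTCTCcaca
In coding exons, 5 windows of optimal members are shown.
*dos-3* at chrIII:835969-835997: gggtgataatagtatttgttagcatgatc
*pks-1* at chrX:5429537-5429565: ccaagagactcatctcgtgtcccttcgcc
*pals-26* at chrIII:4378795-4378823: gatgcagtcgtggaggaaattcaagcgat
ZK112.4 at chrIII:7729754-7729782: gataggaaacggacagttgtatttagtac
*pqn-74* at chrIV:13330081-13330109: cattgagcgttctgtggagcctgggtgga
In 3′ UTRs, the optimal member in *zig-11* is followed by 2 strong members outside the optimal set.
*zig-11* at chrV:1875810-1875838: aaTTTTTTTTTTgtccTTTTTTTTgaaag
*atln-1* at chrIV:2796722-2796750: ctcagccaacatactcTTTTTTTTTTcgt
*ceh-14* at chrX:7528187-7528215: taTTTATTcagaaagtggtgaaatgttga
The windows of the remaining 3 optimal members are not shown, and no share of windows with a word can be read from so few.

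Of the 8138 members, 13 were optimal (0.160%, 95% Wilson interval 0.0934 to 0.273), where 2.57% of all pooled regions were. The signal value, the authors' own measure of strength on a scale that is not given, is compared here within a list only. Regions are not replicates, so all intervals cover counting error only. All 13 optimal members overlapped a region in both replicate lists, with both replicate summits within 100 bp of the pooled one. The filter chose optimal regions for agreement between these replicates, so this is no independent support for the 13. Of the 13, 6 were among the strongest regions of each replicate list, counting as many regions as there are optimal ones. None lay within 2000 bp of another optimal summit.

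The 5′ UTRs held the strongest member and 5 of the 13. F22D3.4, at 6926068 to 6926375 on chromosome II, had a pooled signal value of 348.4, with 209.6 in replicate 1 and 142.0 in replicate 2, and ranked 17 in the pooled list. Its summit lay in a first exon of 1730 bp, 1382 bp into the gene and 270 bp before the nearest coding start. Y43F8B.2, on chromosome V at 19522572 to 19522967, had a pooled value of 109.1, with 53 in replicate 1 and 57.6 in replicate 2. That summit was 10340 bp into the gene but only 91 bp past the annotated beginning of a shorter transcript, and 3 bp before a coding start. ZK484.6 followed at 82.1 in the pooled list, with 48.4 in replicate 1 and 37.1 in replicate 2, just outside the excluded window at 234 bp into the gene. C34C12.2 had 77.8 in the pooled list, with 34.9 in replicate 1 and 43.1 in replicate 2, in a first exon of 2829 bp. The last, *alg-1*, which encodes an Argonaute of the microRNA pathway, had 71.4 in the pooled list, with 36.6 in replicate 1 and 37.4 in replicate 2. Its summit was 1620 bp into the gene and upstream of a shorter *alg-1* transcript. All 5 summits thus lay in the first exon of a transcript, and 2 of them, those in Y43F8B.2 and *alg-1*, fell in the excluded window when every annotated transcript was counted.

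Coding exons held 6 of the 13. *dos-3*, which encodes a protein of the family of Notch co-ligands named for Delta and OSM-11, had a pooled signal value of 200.6 at 835883 to 836107 on chromosome III, with 114.5 in replicate 1 and 88.5 in replicate 2. The summit was 3608 bp into the gene, in exon 11, and 2148 bp from the nearest other optimal summit, the shortest such distance among the 13. *pks-1*, a polyketide synthase gene 28152 bp long, had a pooled value of 157.7 on chromosome X at 5429353 to 5429748, with 79.5 in replicate 1 and 80.3 in replicate 2. Its summit lay 15741 bp into the gene, in exon 22. *pals-26*, of a family known for genes induced by intracellular pathogens, had 120.9 in the pooled list, with 72.4 in replicate 1 and 51.1 in replicate 2, in a region only 100 bp wide. These 3 were high in both replicates, each among the strongest 341 regions of each list. The other 3 were high in 1 replicate and lower in the other. ZK112.4, a gene of 303 bp, had a pooled value of 82.9, with 54.8 in replicate 1 and 27.4 in replicate 2. Its summit was just outside the excluded window, at 243 bp into the gene. *suro-1*, which encodes a protein related to zinc carboxypeptidases, had 74.4 in the pooled list, with 30.7 in replicate 1 and 45.4 in replicate 2. *pqn-74*, which encodes a protein with a prion-like glutamine- and asparagine-rich stretch, had 70.0 in the pooled list, with 25.8 in replicate 1 and 38.4 in replicate 2.

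The 3′ UTRs held 2 of the 13, both near the weak end of the optimal range. *mom-5*, which encodes a Frizzled receptor of Wnt signalling, had a pooled signal value of 78.9, with 33.3 in replicate 1 and 44.0 in replicate 2, and its summit was 469 bp before the end of the gene. *zig-11*, which encodes a protein with immunoglobulin domains, had 69.9, with 47.4 in replicate 1 and 24.2 in replicate 2, at 346 bp before the end. The optimal range of the pooled list began at 69.6. The members just below it were in Y71G12B.31 at 68.8, F55C7.2 at 68.7, *sup-37* at 68.3 and *gldi-8* at 68.3, with no gap in signal value between the 2 sets. As a bare number the signal value was higher in replicate 1 at 6 of the 13 and in replicate 2 at the other 7. The lists may differ in scale, so this does not say in which replicate a region was stronger.

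**Figure D1:**
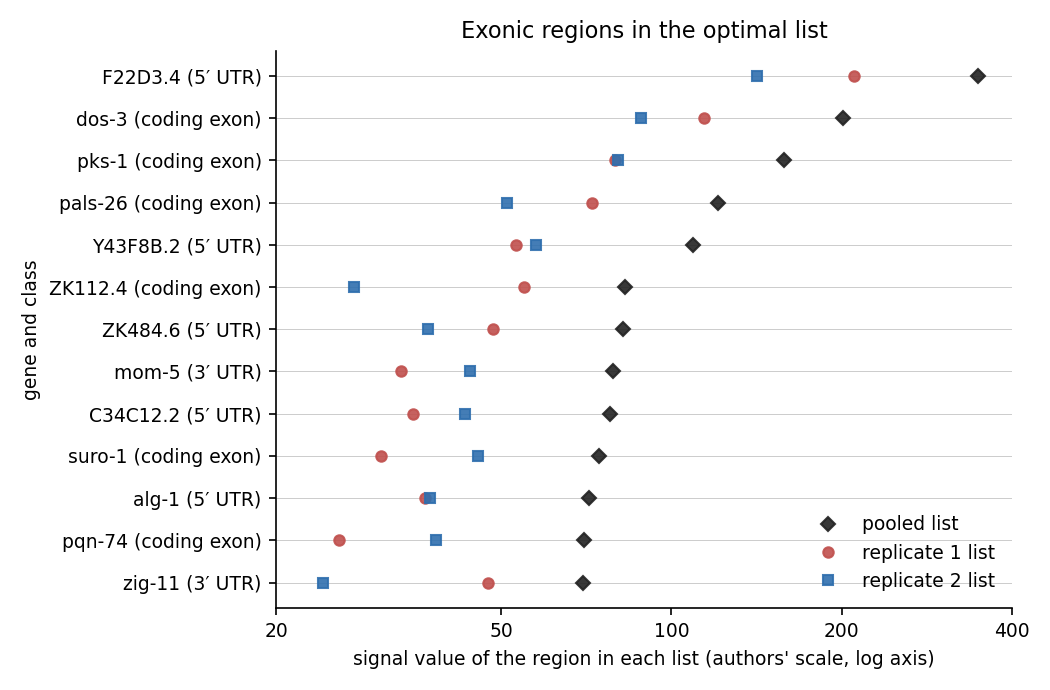
Signal value of the 13 exonic regions of the optimal list, 1 row per gene, in the pooled list (diamonds), replicate 1 (circles) and replicate 2 (squares), on a log axis. The first rows, F22D3.4 and *dos-3*, stand above the rest in all 3 lists, and from ZK112.4 down the pooled values lie between 82.9 and 69.9.

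Members were rarer among strong regions than among weak ones in every list. The optimal share was 0.160% of members and 3.47% of the other pooled regions (759 of 21862), a difference of −3.31 percentage points (95% Newcombe interval −3.57 to −3.05). Of these 759, 354 lay in promoter windows and 227 near small RNA genes, 2 classes that the choice of members left out. The optimal share was 5.01% in promoter windows, 31.3% near small RNA genes, 1.76% in intergenic regions and 0.719% in introns. The size of the difference thus depends on the classes it is set against. Taking the strongest regions of a single list in the same number, 25 of 9645 exonic regions of replicate 1 (0.259%, where the whole list has 2.57%) and 15 of 5625 of replicate 2 (0.267%, where the whole list has 2.82%) were among them. Against the other regions of the same list, the differences were −3.41 points in replicate 1 (−3.69 to −3.13) and −3.22 in replicate 2 (−3.49 to −2.93). By rank of pooled signal value, members made up 1.68% of the optimal regions, 11.5% of the rest of the first 3000, 23.4% of the next 3000 and 27.4% to 31.8% of every later 3000. The share of members thus fell with strength beyond the optimal limit as well. The median was 23.8 for members and 25.5 for the others, while the 90th percentile was 35.8 for members and 46.2 for the others.

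**Figure D2:**
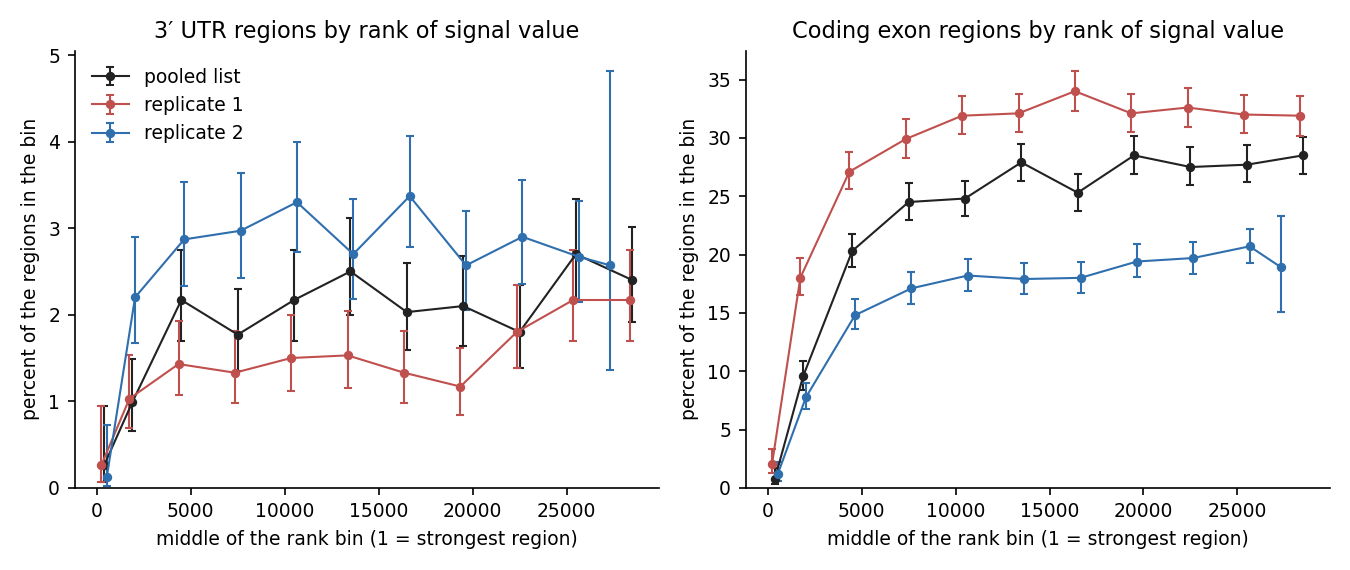
Percent of regions whose summit lay in a 3′ UTR (left) or a coding exon (right), by rank of signal value in bins, for the pooled list and each replicate, with 95% Wilson intervals. Both classes are scarcest in the first bin of every list. The replicate 1 line lies above that of replicate 2 for coding exons and below it in all but the first bin for 3′ UTRs.

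Read against the sequence available, the list held 355 members per Mb of eligible exon sequence (22.9 Mb, 22.9% of the genome) and 283 of the other regions per Mb of the rest. In the pooled list candidate regions were denser in eligible exons than in introns (265 per Mb) and in the excluded promoter windows (331 per Mb). The replicates differed here. Replicate 1 had 421 exonic regions per Mb and 263 per Mb of the rest, while replicate 2 had 245 exonic regions per Mb and 281 per Mb of the rest, with 262 in introns and 328 in promoter windows. The optimal regions were sparser in exons, with 0.567 per Mb of eligible exon sequence and 9.81 per Mb of the rest. Within exons, 3′ UTRs had 261 regions per Mb, coding exons 365 and 5′ UTRs 409, and optimal regions numbered 0.851, 0.301 and 9.35 per Mb in that order. The 5′ UTR value rests on 5 regions, and the promoter windows had 16.6 optimal regions per Mb. Of the classes within exons, 63.9% of 5′ UTR members lay in the window of an annotated transcript 5′ end, compared with 1.47% of 3′ UTR and 7.57% of coding-exon members.

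The excluded window takes out most of the strong exon summits. Of 49 optimal summits in exons of coding genes, 4 lay near a small RNA gene, 2 of them also in a promoter window, and a further 32 lay in a promoter window, which leaves the 13. Over exon summits at all distances, small RNA and long noncoding RNA genes aside, the optimal share was 2.76% within the first 100 bp of the gene (20 of 725) and 0.701% in the next 100 bp (3 of 428). It was 0.843% from there to 300 bp (3 of 356) and 0.321% from there to 500 bp (2 of 624). Between 500 and 1000 bp none of 1328 exon summits was optimal, which by the limit of 3 counts allows a share of up to 0.226% (the Wilson interval drawn by distance ends at 0.288%), and beyond 1000 bp the share was between 0.130% and 0.303%. The highest share was within the first 100 bp, and the intervals of all neighbouring distances overlap. With the excluded window cut to 500 bp upstream and 100 bp downstream there were 9188 members, 0.207% of them optimal, and with 2000 and 500 bp there were 6188, 0.178% of them optimal.

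**Figure D3:**
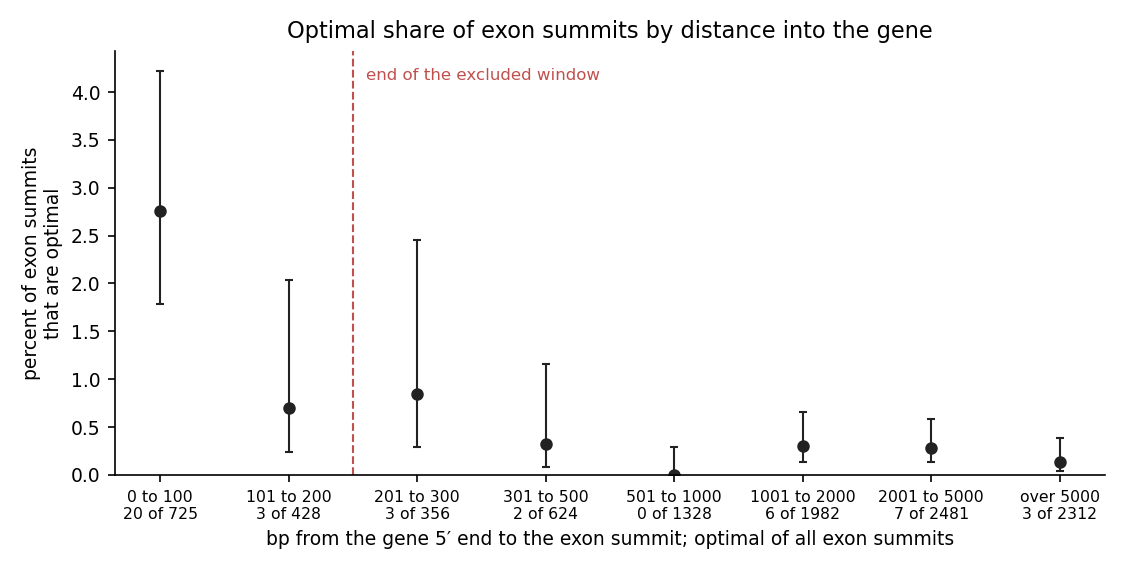
Percent of exon summits that were optimal by distance from the 5′ end of the gene, with 95% Wilson intervals and, under each point, the optimal summits of all exon summits. The dashed line is the downstream end of the excluded window of the gene itself. Summits right of it include some in the promoter window of another gene, which are not members. The point left of all others, 2.76% within 100 bp, is above every later one.

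Between 3′ UTRs and coding exons the optimal shares could not be separated. In 3′ UTRs 2 of 613 members were optimal (0.326%, 95% Wilson interval 0.0895 to 1.18) and in coding exons 6 of 7270 (0.0825%, 0.0378 to 0.180), a difference of 0.244 points with a Newcombe interval of −0.0123 to 1.10. In the single lists the share of coding-exon regions among the strongest was higher than in the pooled list, 0.179% in replicate 1 and 0.195% in replicate 2. The replicates did not share a direction: the difference was 0.257 points in replicate 1 (−0.0785 to 1.40) and −0.0630 in replicate 2 (−0.269 to 0.555). At lower limits the outcome depended on the limit and the list. Among the first 1500 pooled regions, 5.00% of the list, were 1.31% of 3′ UTR members and 0.536% of coding-exon members. That difference was 0.769 points (0.0971 to 2.03). Among the first 3000 pooled regions, 10% of the list, were 3.92% of 3′ UTR members and 3.01% of coding-exon members, a difference of 0.903 points (−0.435 to 2.78). Among the first 6000, 20% of the list, were 14.5% and 11.4%, a difference of 3.13 points (0.454 to 6.22). Replicate 2 had differences above 0 at both limits, 2.65 points at 3000 (0.983 to 4.71) and 4.35 points at 6000 (1.59 to 7.40), where these limits take 11.0% and 21.9% of its list. Replicate 1 had 0.431 points at 1500 (−0.391 to 2.04) and 0.777 points at 3000 (−1.02 to 3.29). It had 1.05 at 6000 (−2.0 to 4.66), and its difference at 12000 was −1.18 (−5.46 to 3.37). Median signal values were 24.1 in 3′ UTRs and 23.7 in coding exons. The strongest 814 of all members held 11.9% of 3′ UTR members (9.58 to 14.7) and 9.50% of coding-exon members (8.85 to 10.2). The 5′ UTRs did stand apart from coding exons: 5 of 219 were optimal (2.28%), 2.20 points more than in coding exons (0.893 to 5.15), and the difference was 2.86 points in replicate 1 (1.30 to 5.97) and 2.21 in replicate 2 (0.825 to 5.31). Coding exons had a lower optimal share than introns, 0.0825% and 0.719% (57 of 7927), a difference of −0.637 points (−0.853 to −0.446).

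The replicates differed most over coding exons. Exonic regions made up 32.1% of the list of replicate 1 (9645 of 30000) and 20.6% of that of replicate 2 (5625 of 27350), a difference of 11.6 points (95% Newcombe interval 10.9 to 12.3). Coding exons alone took 29.8% in replicate 1 and 16.9% in replicate 2, 12.9 points apart (12.2 to 13.5). For 3′ UTRs the order was the other way, 1.53% in replicate 1 and 2.78% in replicate 2 (−1.25, −1.49 to −1.01), while 5′ UTRs took 0.767% and 0.761%. Per Mb, coding exons had 448 regions in replicate 1 and 232 in replicate 2, and 3′ UTRs had 195 in replicate 1 and 323 in replicate 2. Which kind of exon sequence was the denser therefore depended on the replicate. With 1 list per replicate, this difference has no replicate error of its own.

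Fewer members than other regions were found again in both replicates. Of the 8138 members, 2676 overlapped a region of each replicate list by at least 1 bp (32.9%), and 9865 of the other 21862 pooled regions did (45.1%), a difference of −12.2 points (−13.4 to −11.0), where 41.8% of all pooled regions did. The pooled list was called on the same reads as the replicate lists, so this is no independent support for a region. The replicate lists covered 15.1% of the eligible exon sequence in replicate 1 and 9.31% in replicate 2, so some overlap is between unrelated regions. Of 3′ UTR members 43.4% were found in both (266 of 613), and of coding-exon members 31.6% (2296 of 7270), a difference of 11.8 points (7.79 to 15.9). With a replicate summit within 100 bp in place of any overlap, the shares were 15.3% and 13.8%, and the difference of 1.55 points was no longer separated from 0 (−1.21 to 4.72).

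The order of the classes differed between the replicates. In the list of replicate 1, 65.1% of 3′ UTR members and 74.6% of coding-exon members were found (−9.53 points, −13.5 to −5.73), and in that of replicate 2, 70.1% and 48.4% (21.7 points, 17.8 to 25.4). Replicate 1 alone held 21.7% of 3′ UTR members and 43.0% of coding-exon members, and replicate 2 alone held 26.8% and 16.8%. Among introns, 70.2% were found in replicate 1 and 63.3% in replicate 2, so coding exons were below introns by 14.9 points in replicate 2 (−16.5 to −13.3) and above them by 4.41 points in replicate 1 (2.98 to 5.82).

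**Figure D4:**
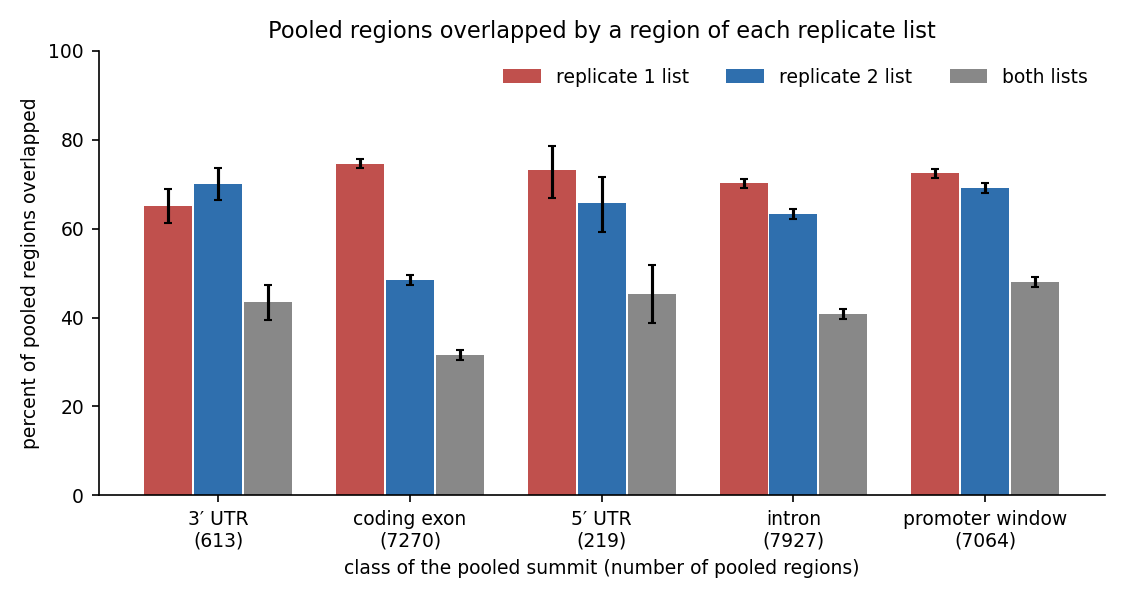
Percent of pooled regions overlapped by a region of replicate 1, of replicate 2 and of both, by the class of the pooled summit, with 95% Wilson intervals. The bar of replicate 2 over coding exons, 48.4%, is the lowest of the single-replicate bars, and the other classes drawn lie between 63.3% and 70.1% there.

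The base composition of the lists moved with this difference. The median GC content of the summit windows was 43.6% in the whole list of replicate 1 and 39.6% in that of replicate 2, and coding sequence is richer in G and C than the other classes. Within bins of GC content the replicates behaved differently. In replicate 1 coding-exon and intron regions of like GC were found about equally often, with 72.7% and 73.5% at 40 to 45% GC and 77.1% and 77.6% at 45 to 50%. In replicate 2 coding exons stayed below introns in every bin, with 45.5% and 61.2% at 40 to 45% GC, 47.7% and 62.0% at 45 to 50%, and 49.2% and 64.5% at 50% and over. The 3′ UTR members were at 63.1% at 40 to 45% GC (122 regions) and 67.7% at 45 to 50% (62 regions) there, and at 72.1% and 75.8% in replicate 1, close to coding exons of like GC. At 35 to 40% GC coding exons and introns in replicate 2 were at 50.7% and 62.6%. Under 35% GC they were at 57.1% and 66.4%, and over all regions at 48.4% and 63.3%. The part of GC content in these differences, read depth and the controls were not tested.

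**Figure D5:**
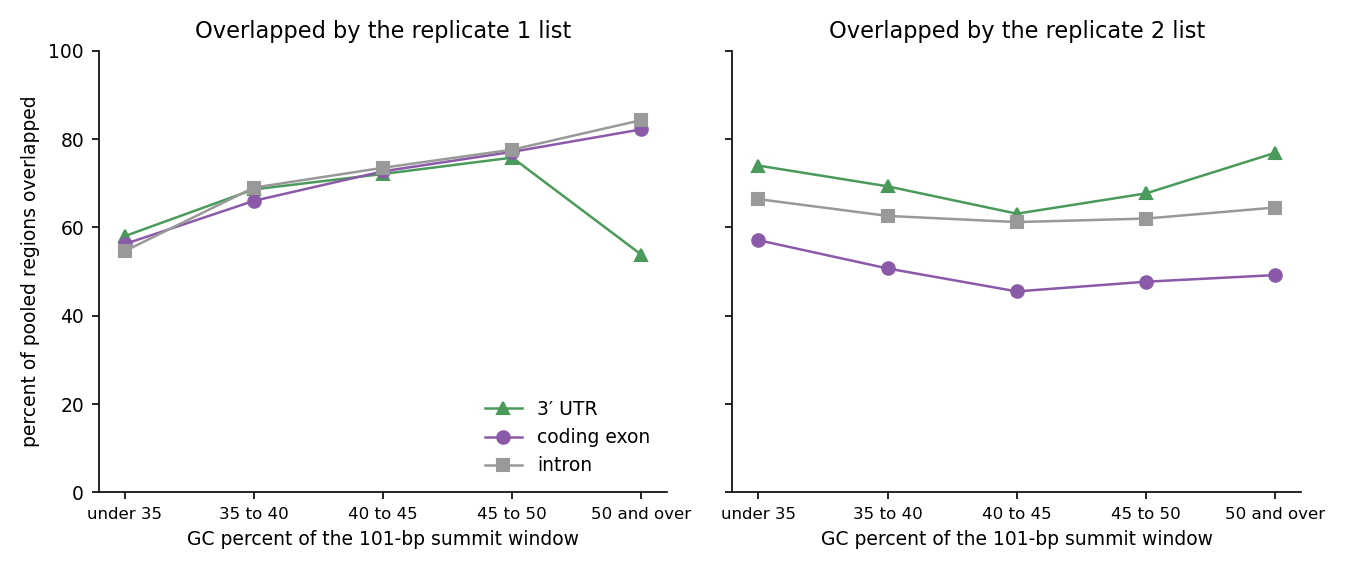
Percent of pooled regions overlapped by a region of replicate 1 (left) and replicate 2 (right), by GC content of the window around the summit, for 3′ UTRs, coding exons and introns. In replicate 1 the lines lie together except for 3′ UTRs at 50% GC and over, a bin of 26 regions; in replicate 2 coding exons are lowest in every bin.

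Members found in both replicates were ordered differently by strength in each. Over the 2676 members found in both, replicate 1 and replicate 2 signal values gave a Spearman rank correlation of 0.0763, and over the 9865 other regions found in both it was 0.385, or 0.238 over the 9112 of these that were not optimal. The coefficient was 0.0954 over 266 3′ UTR members and 0.0606 over 2296 coding-exon members. These values describe the lists: every region had to pass into all 3 lists, which narrows the range of its values. The replicate summits were also farther apart, with a median of 140 bp between them at members and 105 bp at other regions, and 38.6% of members but 48.7% of other regions had them within 100 bp. The strongest exonic regions of replicate 1 were found less often in the other replicate than its other strongest regions. Of the 25 strongest exonic regions of replicate 1, 18 overlapped any region of replicate 2 (72.0%, 52.4 to 85.7) and 6 one of its strongest, while of the 747 other strongest regions 96.1% and 60.5% did. Of the 15 of replicate 2, all 15 overlapped a region of replicate 1, 6 of them one of its strongest (40%, 19.8 to 64.3), compared with 94.5% and 59.8% of the 757 others, and both of these lie inside the counting intervals of the 15.

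Among the 10 strongest 3′ UTR members, those outside the optimal set had pooled signal values of 53 to 61.4. Their ranks differed between the replicate lists. *atln-1*, which encodes the membrane-shaping GTPase atlastin, had 61.4 in the pooled list, with 29.9 in replicate 1 and 33.6 in replicate 2. *mef-2*, which encodes a MADS-box transcription factor, had 59.5, with 24.4 in replicate 1 and 32.5 in replicate 2. *ceh-14*, a LIM homeobox gene, had 57.6, with 37.1 in replicate 1 and 15.1 in replicate 2, ranks 1023 and 12566. *ell-1* also ranked higher in replicate 1, with 43.8 in replicate 1 and 11.5 in replicate 2, ranks 642 and 24016. *mrpl-44*, a gene for a mitochondrial ribosomal protein, ranked higher in replicate 2. It had 18.1 in replicate 1 and 35.5 in replicate 2, ranks 11395 and 799. *cdka-1* and *hex-3* had pooled values of 53.1 and 53, with 24.0 and 22.1 in replicate 1 and 26.7 and 28.1 in replicate 2. Their ranks were 4788 and 6267 in replicate 1 and 1794 and 1514 in replicate 2. The *hex-3* summit also lay 217 bp downstream of the 5′ end of the next gene, Y39A1C.1, just outside the excluded window. Among coding exons, the 4 strongest members below the optimal limit were Y71G12B.31, F55C7.2, *sup-37* and *lit-1*, a gene for a Nemo-like kinase of Wnt signalling, which had 65.3 in the pooled list, with 43.8 in replicate 1 and 22.4 in replicate 2.

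Members, like candidate regions in introns and promoter windows, were richer in G and C than the sequence they came from. In the windows around the summit the median GC content was 36.6% in 3′ UTR members and 45.5% in coding-exon members, where all bases of the eligible 3′ UTR and coding sequence had 30.4% and 42.9%. The other pooled regions had a median of 42.6%. Intron regions had 41.6%, where all intron bases had 31.9%, and promoter-window regions 42.6%, where all bases there had 35.1%. The excess was thus not particular to exons. The median was 47.5% in the 13 optimal members, compared with 51.5% in the 759 other optimal regions, and 45.5% in all members. Optimal members had a median of 6 CpG dinucleotides in the window, other optimal regions 7 and all members 4.

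AATAAA, the polyadenylation signal, lay on the strand of the gene in 13.7% of 3′ UTR windows and 2.46% of coding-exon windows, and on the opposite strand in 19.6% and 3.43%, so 3′ UTR windows held it more often on either strand. TTTTTT or its complement was in 43.2% of 3′ UTR and 11.0% of coding-exon windows, and in 26.7% of all pooled windows. GAGAGA was in 15% of 3′ UTR windows, 6.27% of coding-exon windows, 18.3% of 5′ UTR windows and 10.9% of all. CGCG was in 8.65%, 13.2%, 21.5% and 18.0% in the same order. Among the 13 optimal members GAGAGA was found in 5 and CGCG in 6, while each of the other words was found in 1. Both strands were searched, and GAGAGA and CGCG can occur in the same window, as in *alg-1*.

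Exon length and position along the gene were read for each member. The longest annotated exon that held the summit had a median length of 416 bp. Over all exons of coding genes the median was 166 bp, or 313 bp with each exon weighted by its bases. The all-exon medians did not take the longest exon at a position, so the measures are unlike. By the first measure the median was 677 bp for 3′ UTR members, 390 bp for coding-exon members and 527 bp for optimal members. Along the gene, in steps of 20% of its length starting at the 5′ end, 11.0%, 18.6%, 20.9%, 23.7% and 25.8% of members fell in successive steps. The spread of eligible exon sequence over these steps was not measured, so the shares show no preference for a part of the gene. The excluded window takes members out of the first step, and 89.2% of 3′ UTR members lay in the last. Of coding-exon members alone, 21% lay in the last step and 25.4% in the one before it. Of the 13 optimal members 6 were in the last step. The share found in both replicates was 31.3% to 35.2% over the steps. Summits in 3′ UTRs lay a median of 276 bp before the end of the gene.

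Of 18428 coding genes with eligible exon sequence, 5239 had at least 1 member (28.4%), and 1721 had 2 or more. None of the 12 gene groups examined held an optimal member, where 0.160% of all members were optimal and the group with most members had 122. Their medians of signal lay between 20.4 and 29.9, around the 23.8 of all members. Cuticle collagens, the short repetitive proteins of the worm's outer coat, held members most densely among the large groups: 95 of 177 genes had one (53.7%, 95% Wilson interval 46.3 to 60.9), or 786 per Mb, where all genes had 353 per Mb. Their strongest member was *col-139* at 60.8 in the pooled list, with 34.6 in replicate 1 and 28.4 in replicate 2. *col-19* followed at 50.4, with 36.9 in replicate 1 and no overlapping region in replicate 2, and *col-105* at 47.9, with 30.2 in replicate 1 and 19.3 in replicate 2. Collagen members had a median GC content of 56.4%, above the 45.5% of all members, and 89.3% of them were found in replicate 1 and 54.1% in replicate 2. The placing of reads from near-identical family members is not described in the sources used here, and its part in the result was not tested.

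Chemoreceptor genes, which are expressed in few sensory neurons, were at the low end, with 89 of 1293 genes holding a member (6.88%, 5.63 to 8.39) and 95.6 members per Mb. F-box genes, which encode substrate adaptors of ubiquitin ligases, had 40 of 311 (12.9%, 9.59 to 17), and 9.52% of their members were found in both replicates. Their members had median GC contents of 41.6% in both groups. Nuclear hormone receptor genes had 53 of 268 (19.8%), the strongest being *nhr-25*, the SF-1 homologue, at 55.8 in the pooled list, with 28.7 in replicate 1 and 22.2 in replicate 2. C-type lectin genes had 59 of 232 (25.4%), led by *clec-196* at 55.6, with 25.1 in replicate 1 and 25.2 in replicate 2. Chaperone genes had 25 of 52 (48.1%), led by the mitochondrial Hsp70 gene *hsp-6* at 40.9, and chromatin regulators 30 of 67 (44.8%), led by *set-29* at 47.6. Among 30 genes of germline RNA regulators 14 had a member (46.7%), the strongest in the 3′ UTR of *puf-9*, a Pumilio-family gene, at 44.8. Of 30 translation factor genes 10 had one (33.3%), of 45 ribosomal protein genes 6 (13.3%) and of 6 histone genes 1. All but 1 of the 14 giant muscle and matrix genes had members, with 91 in all and 392 per Mb, close to the value for all genes. Its strongest, in *unc-52*, the perlecan gene, had 52.3 in the pooled list, with 34.9 in replicate 1 and no overlapping region in replicate 2. The groups differ in gene length and GC content, and the part of these was not tested.

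Neither the gene of the tagged protein nor the gene mutated in the strain had an exonic member. No pooled region lay within 2000 bp of the native *madf-2* gene, and of 4 pooled regions at *unc-119* none was exonic or optimal, the strongest having a signal value of 34.8.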

How the data were processed

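Whole late embryos of 1 group, in 2 biological replicates, were profiled by ChIP-seq. Per the deposited file records, the authors called regions on each replicate and on the pool, each with a control alignment, and derived the optimal list from these; the sources used here do not give aligner, caller or read depth; control libraries were not analysed here. Regions were ranked within a list by the authors' signal value, whose scale is not given. The authors' −log10 q-value was left out of the ranking, and each region was placed by the deposited summit offset. The optimal list equalled the top 772 of the pooled list by signal, so the top 772 of each replicate list stood beside it. The ce10 lists were not used.

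Summits (ce11, 1-based) were placed with the Ensembl WBcel235 annotation, release 115, 1 5′ end per gene; a base that is coding in any transcript counted as coding exon. Sequence came from RefSeq's copy of the same assembly. GC content and words were read in 101-bp windows centred on the summit. Shares have 95% Wilson intervals and differences 95% Newcombe intervals. No p-value was computed, since regions are not replicates and there is 1 group. A region was found in a replicate if they overlapped by 1 bp. A count of 0 allows 3 counts. The code (Python 3.11.15, numpy 2.4.6, pandas 2.3.3, scipy 1.17.1) was tested on simulated data. Genes named are those of the optimal members, of the 10 strongest coding-exon and 3′ UTR members, of the 3 strongest in a gene group with a member among the strongest 814 (some by counts only), the 5 genes with most members, *madf-2* and *unc-119*; *gldi-8* and other genes nearest a limit were added after their values were seen. The differences at lower rank limits were added after seeing the data. The members, gene groups and words were chosen with earlier results of these data known. One of the strongest 3′ UTR members is not reported here.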

Additional observations from a re-analysis of the deposited data

How the results depend on the processing

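Of 109 recomputed values under other settings, 91 counted as unchanged. A share or median had to stay within the interval of the reported value. A difference had to keep its direction, and its interval had to exclude 0, or include it, as before. The number of exonic regions has no interval and was judged by a fold limit, which all 7 of its settings met. The lower optimal share of exonic regions kept its direction in all 10 settings tried, from −3.65 points with overlapping regions merged to −1.68 with the stricter threshold, and between −3.41 and −3.22 with 1 replicate left out. Under the stricter threshold, which keeps only the stronger of the optimal regions, 0.0614% of exonic and 1.74% of other regions passed, as fewer regions can. The share of other regions was 3.20% with the wide promoter window and 3.82% after merging.

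The difference between 3′ UTRs and coding exons in optimal share rests on few regions. It was 0.325 points with the narrow promoter window and 0.422 with midpoints in place of summits, both with intervals above 0. It was −0.0413 under the stricter threshold, and from −0.0630 (replicate 2 alone) to 0.257 (replicate 1 alone). Without the mitochondrial regions of replicate 2, a setting chosen after seeing the data, it stayed at −0.0630. The difference in the share found in both replicates was 6.11 to 13.1 points in 9 settings and 1.55 with summits within 100 bp. The cause was not tested. The number of exonic regions was 6188 to 9188. Unknown depth, 2 replicates and the mix of peaks and background limit all values. No paired analysis was possible because there is 1 group.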

Other observations

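The genes with most members were long ones. *vab-10*, which encodes a spectraplakin that links the cytoskeleton to attachment sites, had 23 members, 12 of them found in both replicate lists and the strongest at 38.1. *unc-44*, the ankyrin gene, had 16, and *unc-89*, the gene of the giant muscle protein obscurin, had 15. *eel-1*, a HECT ubiquitin ligase gene, had 12, and *clec-78* and *ttn-1*, the titin gene, had 11 each. Per kb of eligible exon sequence *vab-10* had 0.961 members, *unc-44* 0.704, *unc-89* 0.590, *eel-1* 0.925, *clec-78* 1.10 and *ttn-1* 0.198, so the order by density differs from the order by number. None of these members was optimal. Genes with 5 or more members, 129 in all, had a median of 5776 bp of eligible exon sequence, where all genes with any had 920 bp.

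By chromosome, members were 25.5% (X) to 28.2% (III) of the pooled regions, and their density was 282 per Mb of eligible exon on V to 441 on III. The share of exonic regions was higher in replicate 1 than in replicate 2 on chromosomes I to V and X, with 29.7% in replicate 1 and 19.8% in replicate 2 on X, and 33.7% in replicate 1 and 19.7% in replicate 2 on IV.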
